A study of Sus scrofa with 74 samples.

Results

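Muscles with the most and with the least transcript of slow fibres were compared among 74 pigs. The animals were F2 progeny of a cross between the Duroc and Pietrain breeds, slaughtered at a mean end weight of 110 kg, and RNA of the M. longissimus dorsi of each was hybridised to an Affymetrix porcine array. All belonged to 1 untreated group and, by the study's methods, all were free of the RYR1 mutation that causes malignant hyperthermia. The members of both groups were therefore chosen by values measured on the arrays themselves, with a slow fibre score that was the mean z score of TNNT1, TNNI1 and MYH7. The label numbers leave a gap between DRIP 33 and DRIP 60, so the top and the bottom 8 of 24 and 16 of 50 scores were taken within the animals numbered 1 to 33 and those numbered 60 to 114. This gave 24 slow fibre rich animals (8 with low and 16 with high numbers) and 24 slow fibre poor animals (8 and 16). The middle 26 animals entered no comparison. Many of the animals are full siblings, and family, sex, drip loss, carcass weight and slaughter date are not given per animal in the labels, so the tests treat the animals as independent.

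Skeletal muscle is a mosaic of slow and fast fibres. Slow fibres carry their own isoforms of myosin, troponin and the calcium pump of the sarcoplasmic reticulum, hold many mitochondria and burn fatty acids, whereas fast fibres use glycogen and produce lactate. The longissimus of the pig is a predominantly fast, white muscle, and its fibre makeup is one of the traits discussed for meat colour and water holding capacity. In a whole muscle sample, a smaller number of slow fibres and a lower amount of transcript per slow fibre cannot be told apart.

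The 3 genes of the score encode the slow skeletal troponin T (TNNT1), the slow skeletal troponin I (TNNI1) and the slow myosin heavy chain (MYH7). Their values chose the animals and are given as a description only. TNNT1 lay between 15.27 and 15.90 on the log2 scale in the slow fibre rich animals (median 15.40) and between 13.15 and 15.19 in the slow fibre poor animals (median 14.97). TNNI1 ran from a lowest value of 14.60 through a median of 14.99 to a highest value of 15.46 in the slow fibre rich animals, against 13.09, 14.43 and 14.77 in the slow fibre poor animals. MYH7 ran from 15.47 through 15.69 to 16.05 in the slow fibre rich animals, against 14.13, 15.31 and 15.58 in the slow fibre poor animals. All 3 genes were bright in every animal, so the poorest muscles still expressed slow fibre genes, and the groups differ by degree. The lowest score of a slow fibre rich animal was 0.43 among the low numbers and 0.39 among the high numbers, next to 0.42 and 0.38 for the highest animals of the middle group. The highest score of a slow fibre poor animal was -0.24 among the low numbers and -0.18 among the high numbers, next to -0.23 and -0.15 in the middle group.

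**Figure D1:**
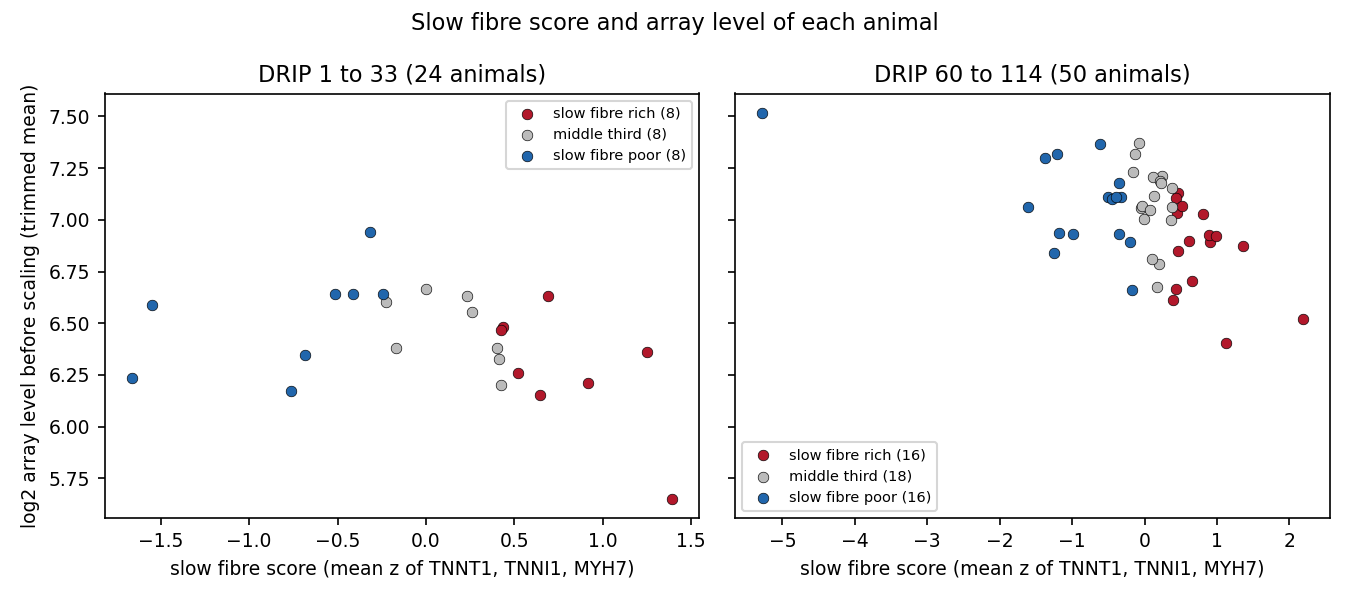
Slow fibre score (x axis) and log2 of the array level before scaling (y axis), 1 point per animal, coloured by group, with the low label numbers on the left and the high label numbers on the right. The median of the slow fibre rich animals lies lower on the y axis than that of the slow fibre poor animals in both panels. The ranges overlap in both, and 1 slow fibre poor animal stands alone at a score of -5.28.

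The groups also differed in the overall brightness of their arrays, and this touches every result below. The level before scaling, a trimmed mean in the units of the deposited table, had a lowest value of 50.3, a median of 103 and a highest value of 140 in the slow fibre rich animals, against 72.1, 122 and 183 in the slow fibre poor animals. The log2 difference was -0.24, rich minus poor (two-sided permutation test within blocks, p = 0.00076, adjusted p = 0.0019 over 5 technical measures). The ratios of 3′ to 5′ control probe sets differed by -0.01 for GAPDH, -0.01 for actin and 0.14 for EF1A on the log2 scale, with adjusted p of 0.836, 0.836 and 0.12 by the same permutation test. After scaling, the mean of the 100 brightest probe sets was 0.17 higher on the log2 scale in the slow fibre rich animals (adjusted p = 0.0011 by the same permutation test), while the median difference of all 11996 probe sets tested was 0.00. A few animals stood apart. DRIP 114, slow fibre poor, had by far the lowest score (-5.28, next -1.61 in its block) and the brightest array. DRIP 23, slow fibre rich, had the dimmest array. DRIP 26 was slow fibre poor, and the arrays of these 3 animals had the 3 lowest median correlations with the other arrays (0.846 for DRIP 23, 0.858 for DRIP 26 and 0.875 for DRIP 114, against a median of 0.918 over all animals).

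Of the 11996 probe sets tested, 15 were higher in the slow fibre rich animals and 0 were lower (limma with the block of label numbers as a covariate, Benjamini-Hochberg adjusted p under 0.05). These calls make up 0.125% of the probe sets tested for the higher direction and 0% for the lower. At an unadjusted p under 0.05 there were 778 higher (6.49%) and 620 lower (5.17%) probe sets. Counts depended on the score. With the score formed without TNNI1, where 21 of 24 animals in each group were the same, 582 were higher and 691 lower, and with the score as a continuous term over all 74 animals 536 and 403. The fit asks whether a transcript goes with the score on the same arrays, and it is no test of a treatment. Of the 15 probe sets, 10 have a gene symbol and stand for 9 genes, which were MYL3, TNNC1, MYL2 and MYBPC1 of the sarcomere, the calcium pump gene ATP2A2, and HSPB6, FHL1, PDLIM1 and PRDX2. All 15 had a positive difference in both blocks, and without DRIP 114 there were 14 higher and 0 lower, of which 13 were among the 15. Both blocks entered the fit that chose the 15, so the shared sign is no independent support.

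Of 8 slow sarcomere genes tested, 4 rose, all of them parts of the thick or thin filament. MYL3, the essential light chain of slow muscle and of the heart ventricle, had a lowest value of 14.21, a median of 14.68 and a highest value of 15.06 in the slow fibre rich animals, against 12.09, 13.94 and 14.69 in the slow fibre poor animals. The difference was 0.68 ± 0.10 on the log2 scale (SE, 1.60-fold, limma adjusted p = 0.000113), and all 24 rich animals lay above the median of the poor animals although the ranges overlap. TNNC1 encodes the troponin C of slow and cardiac muscle, the calcium sensor of the thin filament. It ran from 14.65 through 15.22 to 15.48 in the slow fibre rich animals and from 13.44 through 14.65 to 15.07 in the slow fibre poor animals. Its difference of 0.54 ± 0.08 (1.45-fold, limma adjusted p = 6.39e-05) had the smallest p of all probe sets, and 20 of 24 rich animals exceeded the highest poor animal.

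MYL2 encodes the regulatory light chain of slow and ventricular myosin. Its values were 15.50 at the lowest, 15.66 at the median and 16.13 at the highest in the slow fibre rich animals, against 13.61, 15.37 and 15.56 in the slow fibre poor animals. Only 3 of 24 rich animals did not exceed the highest poor animal, and the difference was 0.41 ± 0.08 (1.33-fold, limma adjusted p = 0.009). The poor animal at 13.61 was DRIP 114, without which the difference was 0.34 (limma adjusted p = 1.7e-06). With the array level as a covariate it was 0.26 and no longer passed (limma adjusted p = 0.526).

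MYBPC1, the slow myosin binding protein C, was 13.97 at the lowest, 14.95 at the median and 15.25 at the highest in the slow fibre rich animals, against 12.88, 14.46 and 14.92 in the slow fibre poor animals. Its difference was 0.46 ± 0.10 (1.38-fold, limma adjusted p = 0.0295), and the ranges overlapped, with 14 of 24 rich animals above the highest poor animal. The remaining 4 slow sarcomere genes did not pass. ACTN2, the alpha-actinin of the Z-disc found in all fibre types, differed by 0.29 ± 0.12, and a further probe set of it by 0.38 ± 0.12 (limma adjusted p of 0.365 and 0.209). SMPX, TPM3 and XIRP2 differed by 0.05, 0.03 and -0.03, each less than its SE of 0.11 to 0.13. TPM3 is the slow tropomyosin, but it also has widely expressed isoforms, and its probe sets here had a log2 level of about 10.60 in rich and 10.56 in poor animals for the brightest. The difference of 0.03 is that of the brightest. Its dimmer probe sets differed by 0.12 ± 0.14 and 0.44 ± 0.23 without passing (limma adjusted p of 0.731 and 0.451).

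**Figure D2:**
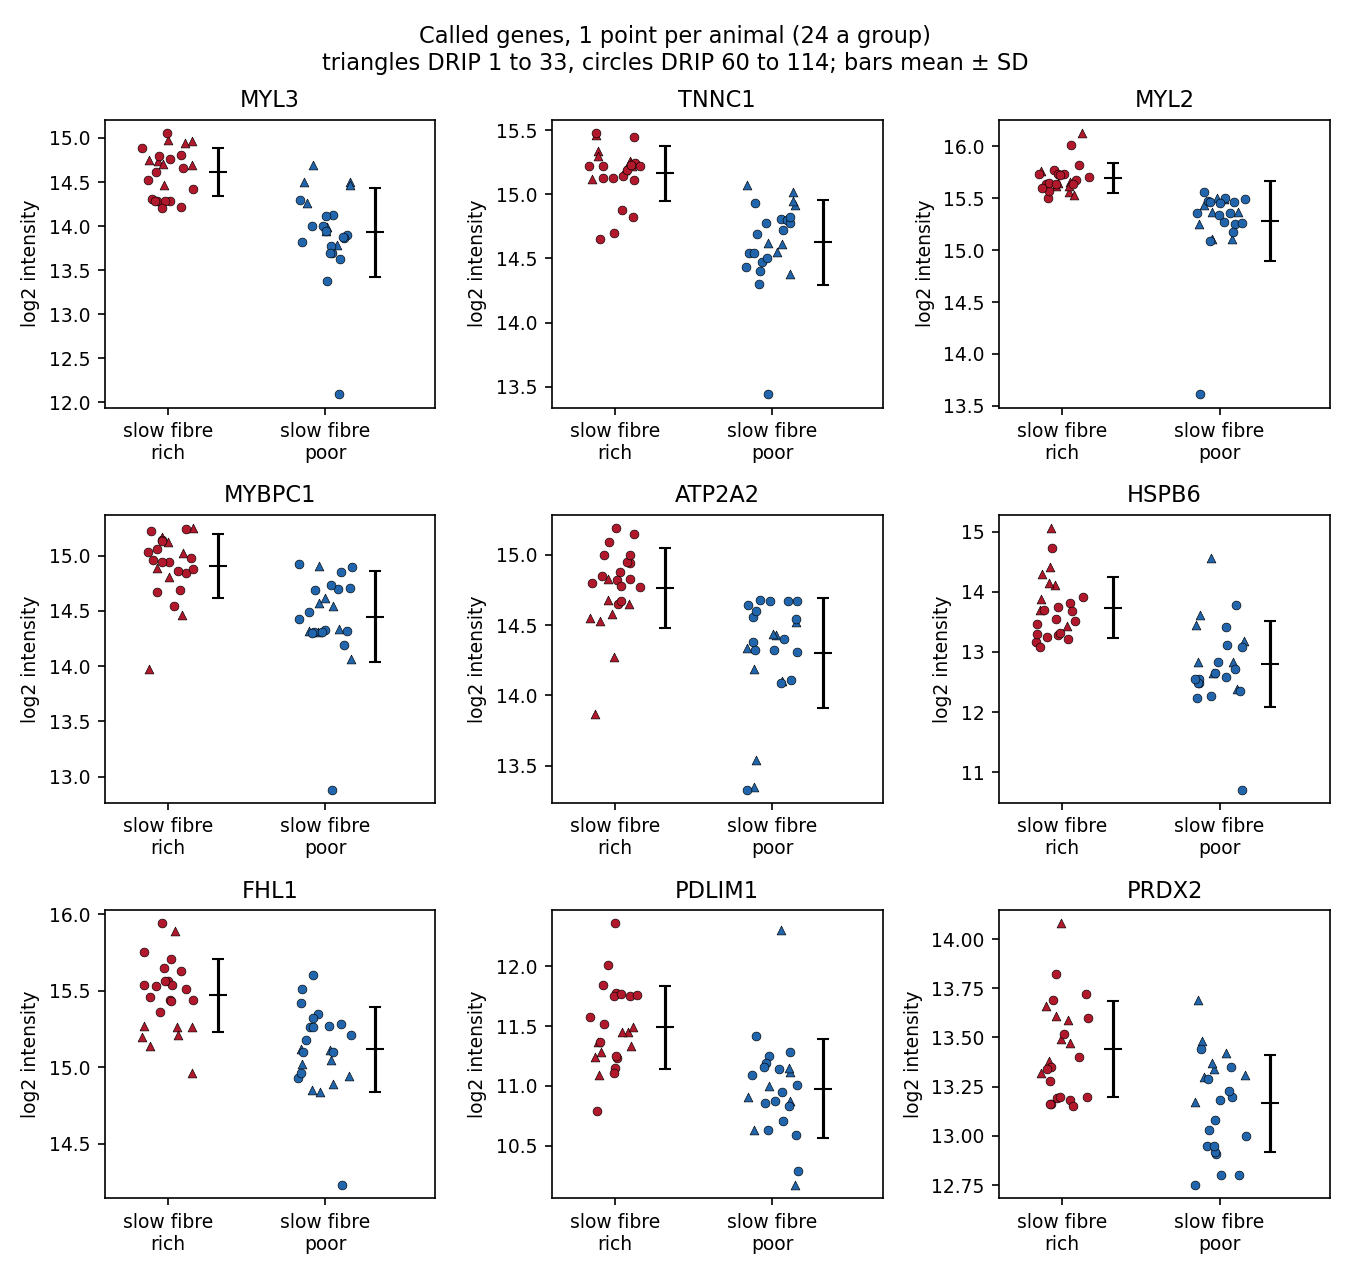
Log2 intensity of the 9 called genes (y axis), 1 point per animal, slow fibre rich on the left and slow fibre poor on the right of each panel, with the mean and SD of 24 animals as bars. The lowest point in the slow fibre poor group of MYL3, TNNC1, MYL2, MYBPC1, ATP2A2, HSPB6 and FHL1 is DRIP 114. Without it the mean of the slow fibre rich group is still above that of the poor one in all 9 panels.

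Of the genes for calcium handling in slow fibres, 1 of 6 passed. ATP2A2 encodes SERCA2, the pump that returns calcium to the sarcoplasmic reticulum of slow and cardiac muscle. Its brightest probe set was 13.87 at the lowest, 14.81 at the median and 15.19 at the highest in the slow fibre rich animals, against 13.33, 14.39 and 14.68 in the slow fibre poor animals, a difference of 0.46 ± 0.09 (1.38-fold, limma adjusted p = 0.00543). For this probe set 15 of 24 rich animals exceeded the highest poor animal. The 3 dimmer probe sets of ATP2A2 did not pass and differed by 0.17, 0.16 and -0.29 on the log2 scale. PLN encodes phospholamban, the inhibitor of this pump. It had a median of 11.62 in the slow fibre rich and 11.08 in the slow fibre poor animals, with a difference of 0.54 ± 0.20 that missed the threshold (limma adjusted p = 0.308). CASQ2, the slow and cardiac calsequestrin that binds calcium within the reticulum, was a dim probe set with a median of 7.57 in the rich and 6.80 in the poor animals and a wide spread (difference 0.72 ± 0.41, limma adjusted p = 0.478). SLN, HRC and S100A1 differed by 0.18, 0.05 and -0.13 without passing. SLN, which encodes sarcolipin, was among the 100 brightest probe sets, and its difference was 0.02 with the array level as a covariate.

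A further 4 genes passed that belong to no isoform pair of the sarcomere. HSPB6 encodes a small heat shock protein abundant in slow, cardiac and smooth muscle, and it had the largest difference of the genes with a symbol that passed. The values of its brighter probe set were 13.08, 13.69 and 15.06 at the lowest, median and highest in the slow fibre rich animals, against 10.71, 12.68 and 14.56 in the slow fibre poor animals (difference 0.93 ± 0.15, 1.91-fold, limma adjusted p = 0.000687). The second probe set of HSPB6 gave 0.82 ± 0.16 (limma adjusted p = 0.00838). All 24 rich animals lay above the median of the poor animals, but only 2 lay above the highest of them. The difference was nearly equal in the blocks, at 0.94 in the low and 0.93 in the high numbers.

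PDLIM1, a PDZ and LIM domain protein that binds alpha-actinin, was 10.79, 11.45 and 12.36 at the lowest, median and highest in the slow fibre rich animals, against 10.17, 10.98 and 12.30 in the slow fibre poor animals (0.51 ± 0.11, 1.42-fold, limma adjusted p = 0.021). The poor animal at 12.30 was DRIP 26, far above the others of its group. FHL1, a LIM domain protein of the sarcomere, was 14.96, 15.49 and 15.94 in the slow fibre rich animals, against 14.23, 15.11 and 15.60 in the slow fibre poor animals (0.35 ± 0.07, 1.28-fold, limma adjusted p = 0.00543). PRDX2, a peroxiredoxin that reduces hydrogen peroxide, was 13.15, 13.39 and 14.08 in the slow fibre rich animals, against 12.75, 13.19 and 13.69 in the slow fibre poor animals. Its difference of 0.27 ± 0.06 (1.21-fold) was at the edge of the threshold (limma adjusted p = 0.0493) and missed it without DRIP 114 (0.27, limma adjusted p = 0.0588).

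The other 5 called probe sets have no gene symbol in the annotation. The largest difference of all belonged to one of them, Ssc.26508.1.S1_at, with 12.21, 14.77 and 15.58 at the lowest, median and highest in the slow fibre rich animals, against 10.69, 12.55 and 15.25 in the slow fibre poor animals. It differed by 1.57 ± 0.31 (2.96-fold, limma adjusted p = 0.009), by 2.02 in the low and 1.34 in the high numbers, and 23 of 24 rich animals lay above the median of the poor animals. Ssc.6014.1.S1_at, a dim probe set, differed by 1.01 ± 0.21 (limma adjusted p = 0.02). The other 3 differed by 0.34 to 0.47, and the call of Ssc.4802.1.A1_at was lost without DRIP 114 (0.42, limma adjusted p = 0.0531).

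None of the fast isoforms passed, in either direction. The 9 fast sarcomere genes measured were MYH2, MYL1, MYLPF, TNNT3, TNNI2, TNNC2, TPM1, MYOZ1 and MYOM2, and their differences were all positive in the scaled values, from 0.13 for MYOZ1 to 0.26 for MYH2, with limma adjusted p of 0.177 to 0.372. With the score formed without TNNI1, 7 of the 9 passed as higher, by 0.23 for MYL1 to 0.32 for MYH2 and TNNC2, and with the score as a continuous term over all animals 7 passed, by 0.14 for MYL1 to 0.18 for TNNI2 and TNNC2. Without TNNT1 in the score, MYLPF (0.22) and TNNC2 (0.25) passed. With the array level as a covariate the same genes lay between -0.01 and 0.06, and the direction turned for 4 of them. TNNC2, the fast troponin C and partner of the slow TNNC1, had 15.25, 15.60 and 16.14 at the lowest, median and highest in the slow fibre rich animals, against 14.88, 15.41 and 15.87 in the slow fibre poor animals (0.22 ± 0.06). MYH2, the fast oxidative myosin heavy chain IIa, had a median of 15.94 in the rich and 15.81 in the poor animals, and its lowest poor value of 13.30 was DRIP 26. Without DRIP 23, DRIP 26 and DRIP 114 the difference of MYH2 was 0.12. The calcium pump of fast fibres, ATP2A1, and the calcium release channel, RYR1, differed by 0.17 ± 0.10 and 0.20 ± 0.08 without passing, and by -0.13 and 0.10 with the array level as a covariate.

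The brightness of a probe set moved with its difference. Of the 100 brightest probe sets, 99 were higher in the slow fibre rich animals, with a median difference of 0.18, and the median was 0.07 for ranks 101 to 500 and between -0.01 and 0.00 for all dimmer ranks. Of the 9 fast sarcomere genes 8 were among the 100 brightest, as was SLN, and MYOM2 ranked 135. GAPDH and ENO3 of glycolysis differed by 0.20 and 0.20, and PYGM, the glycogen phosphorylase of muscle, by 0.21, none of them called. With the second grouping given below they lay slightly below 0 (-0.06, -0.04 and -0.03, each with an SE of 0.06). The part of the array level in these differences was not tested beyond the alternatives given here. With the level as a covariate, 9 probe sets passed as higher and 0 as lower, 7 of them among the 15 calls. MYL3 (0.60), TNNC1 (0.56), ATP2A2 (0.55) and PDLIM1 (0.63) passed, and HSPB6 (0.72, limma adjusted p = 0.0609), MYBPC1 (0.41), FHL1 (0.24) and PRDX2 (0.16) did not.

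Since the score and the array level moved together, the groups were formed a second time after the regression of the score on the log2 level had been removed within each block, a choice made after the data had been seen. The new slow fibre rich group shared 15 of its 24 animals with the first, and the new slow fibre poor group 16 of 24. Before the removal, the scores ran from -0.14 to 2.18 (median 0.45) in the new rich group. They ran from -5.28 to 1.13 (median -0.46) in the new poor group, so the groups overlap in slow fibre score. Rich and poor in this grouping therefore mean a score high or low for the array level of the animal. The median level before scaling was 122 in the new rich and 102 in the new poor group, and the log2 difference of the level was 0.09 (permutation adjusted p = 0.608). The removal makes this difference small by construction, so its p is no test of balance. The 3′ to 5′ ratio of GAPDH, a sign of RNA quality, was 0.05 higher on the log2 scale in the new rich group (permutation adjusted p = 0.0472), and its part in the results was not tested. With these groups 44 probe sets were higher in the slow fibre rich animals (0.367% of those tested) and 9 were lower (0.075%), and 11 of the 15 earlier calls were among them. All 53 had the same sign in both blocks, and all 53 also passed without DRIP 23, DRIP 26 and DRIP 114, where the counts were 90 higher and 42 lower. The same animals chose the 53, so neither is independent support. DRIP 23, DRIP 26 and DRIP 114 were left out of the limma fit only. The regression and the groups were still formed with them, so their part in the grouping was not tested.

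Under this grouping 4 of 8 slow sarcomere genes passed and 0 of 9 fast ones. TNNC1 differed by 0.59 ± 0.07 (limma adjusted p = 5.21e-07), MYL3 by 0.61 ± 0.11, MYBPC1 by 0.46 ± 0.09, ATP2A2 by 0.48 ± 0.08 and PDLIM1 by 0.60 ± 0.09, all called. The brighter probe set of ACTN2 now passed as well (0.46 ± 0.11, limma adjusted p = 0.0427), and its further probe set did not (0.35 ± 0.12, limma adjusted p = 0.214). MYL2 (0.25 ± 0.09, against 0.41 in the first grouping), FHL1 (0.26 ± 0.07) and PRDX2 (0.11 ± 0.06) did not pass. The 9 fast sarcomere genes lay between -0.07 for TNNT3 and TNNC2 and 0.05 for MYOM2, with SE of 0.05 to 0.07. Their positive differences in the first grouping were thus lost, and the 8 values below 0 lay close to it, none called. ATP2A1, the fast calcium pump SERCA1, lay at -0.22 ± 0.08 without passing (limma adjusted p = 0.276), and it passed as lower without DRIP 23, DRIP 26 and DRIP 114 (-0.29, limma adjusted p = 0.0412). For PLN, the dimmer probe set rose by 1.02 ± 0.24 (2.03-fold, limma adjusted p = 0.029) and the brighter one missed the threshold (0.76 ± 0.19, limma adjusted p = 0.0516).

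**Figure D3:**
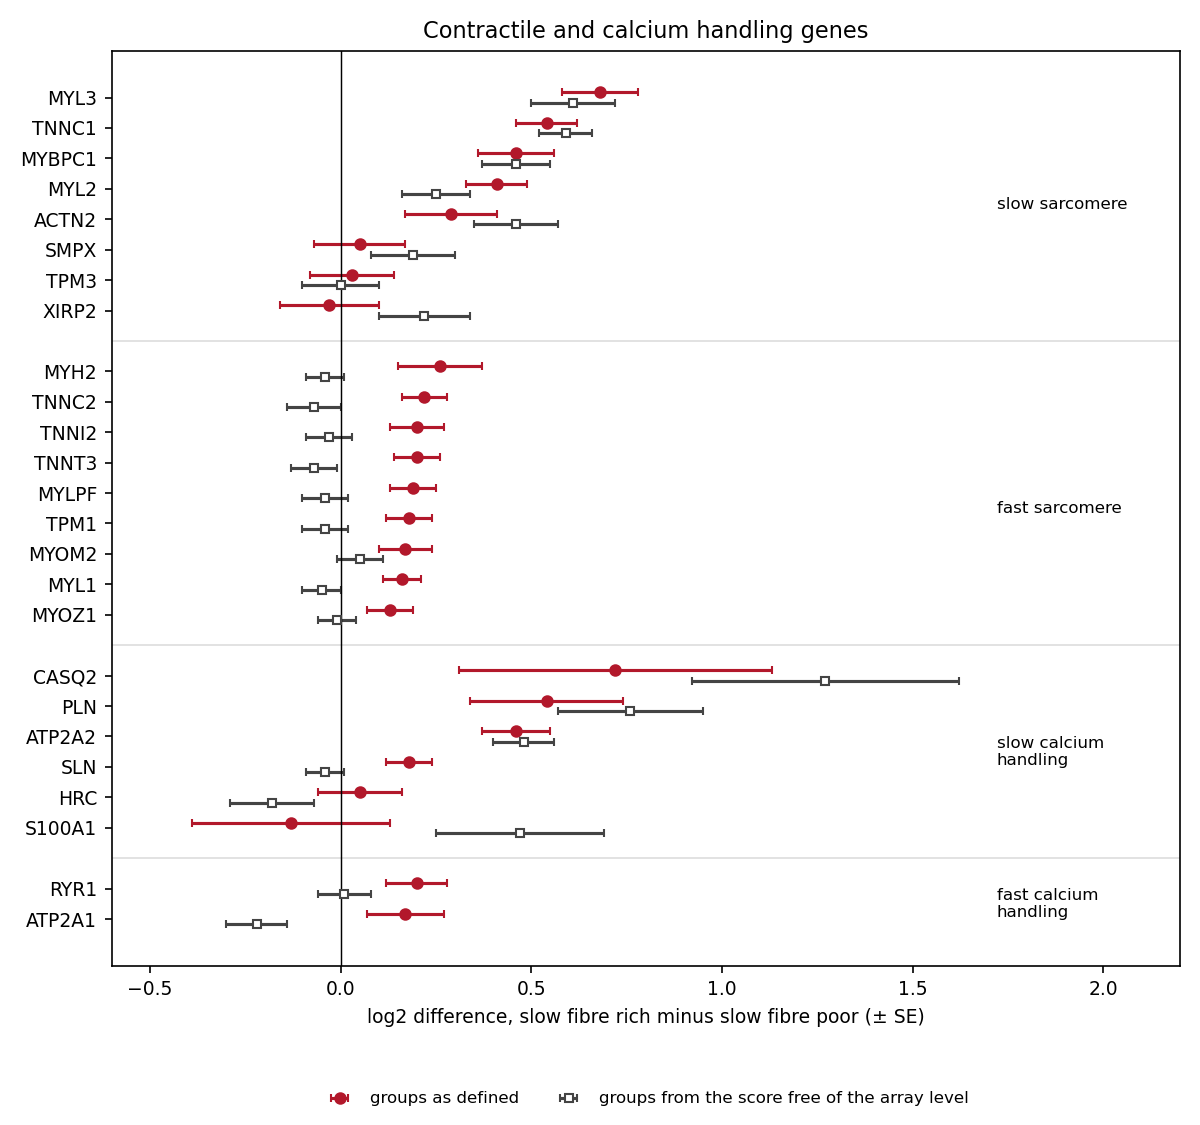
Log2 difference, slow fibre rich minus slow fibre poor (x axis, ± SE), of each contractile and calcium handling gene, with the groups as defined (filled red circles) and with groups from the score free of the array level (open squares). The slow genes MYL3, TNNC1, MYBPC1 and ATP2A2 pass in both, and MYL2 passes in the first (0.41) and not in the second (0.25). ACTN2, drawn by its brighter probe set, passes in the second only (0.46, against 0.29). The 9 fast sarcomere genes move from 0.13 to 0.26 in the first to -0.07 to 0.05 in the second.

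Further genes that were called with the second grouping and not with the first are described here, picked after their values had been seen. They are no sample of their pathways, of which few members passed (1 of 33 genes of complex I, 0 of 28 of complexes II to V, 0 of 16 of the citric acid cycle and 2 of 22 of fatty acid uptake and oxidation). LDHB encodes the heart type subunit of lactate dehydrogenase, which predominates in oxidative fibres. It was 12.31 at the lowest, 13.24 at the median and 13.86 at the highest in the slow fibre rich animals, against 11.77, 12.54 and 13.89 in the slow fibre poor animals, a difference of 0.66 ± 0.10 (1.58-fold, limma adjusted p = 0.000135). In the first grouping it differed by 0.27 (limma adjusted p = 0.458). SLC16A3, the monocarboxylate transporter that exports lactate from glycolytic fibres, went the other way. It was 8.90, 9.88 and 11.84 at the lowest, median and highest in the slow fibre rich animals, against 9.00, 10.46 and 11.88 in the slow fibre poor animals (-0.53 ± 0.13, limma adjusted p = 0.0417). Its difference in the first grouping was 0.02 (limma adjusted p = 0.972).

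The 2 called genes of the fatty acid list were ACADL and ACAA2. ACADL, the long chain acyl-CoA dehydrogenase, had a median of 10.41 in the slow fibre rich and 9.87 in the slow fibre poor animals (0.60 ± 0.13, 1.52-fold, limma adjusted p = 0.0152). ACAA2, the mitochondrial thiolase, had medians of 10.69 and 10.28 (0.40 ± 0.09, limma adjusted p = 0.0281). PHYH, the peroxisomal enzyme that begins the breakdown of phytanic acid, rose by 0.73 ± 0.14 (1.65-fold, limma adjusted p = 0.00403), with medians of 12.48 in the rich and 11.73 in the poor animals. HSDL2, a peroxisomal protein, rose by 0.59 and ACOT13, an acyl-CoA thioesterase, by 0.42. NDUFA1 of respiratory complex I rose by 0.27 and MRPL39 of the mitochondrial ribosome by 0.34. In the first grouping, the differences of ACADL, ACAA2, PHYH, HSDL2, ACOT13, NDUFA1 and MRPL39 were 0.13, 0.07, 0.24, -0.06, 0.06, 0.14 and 0.00, none of them called.

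LMCD1, a LIM and cysteine-rich domain protein of muscle, rose in the second grouping with both of its probe sets, by 1.01 ± 0.21 and 0.84 ± 0.17 (limma adjusted p of 0.01 and 0.00576), and differed by 0.67 and 0.60 in the first (limma adjusted p of 0.297 and 0.22). Its brighter probe set had a median of 13.17 in the slow fibre rich and 12.46 in the slow fibre poor animals. Also called as higher in the second grouping only were BMPR1B (0.44), FGGY (0.44), MRLC2 (0.43 and 0.26) and UCHL3 (0.41). BCCIP (0.37), LOC100524239 (0.29), EIF3H (0.28) and C6H1orf123 (0.22) were called in the same way. Of the 9 lower probe sets, 4 have a symbol. These are SLC16A3, KIAA1671 (-0.52), ARFGEF2 (-0.41) and MAP1LC3A, an autophagosome protein of the LC3 family (-0.37), and in the first grouping they differed by 0.02, -0.08, -0.21 and -0.07 without passing. Unnamed Ssc.26508.1.S1_at again had the largest difference, 1.95 ± 0.26 (3.87-fold, limma adjusted p = 4.56e-06).

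**Figure D4:**
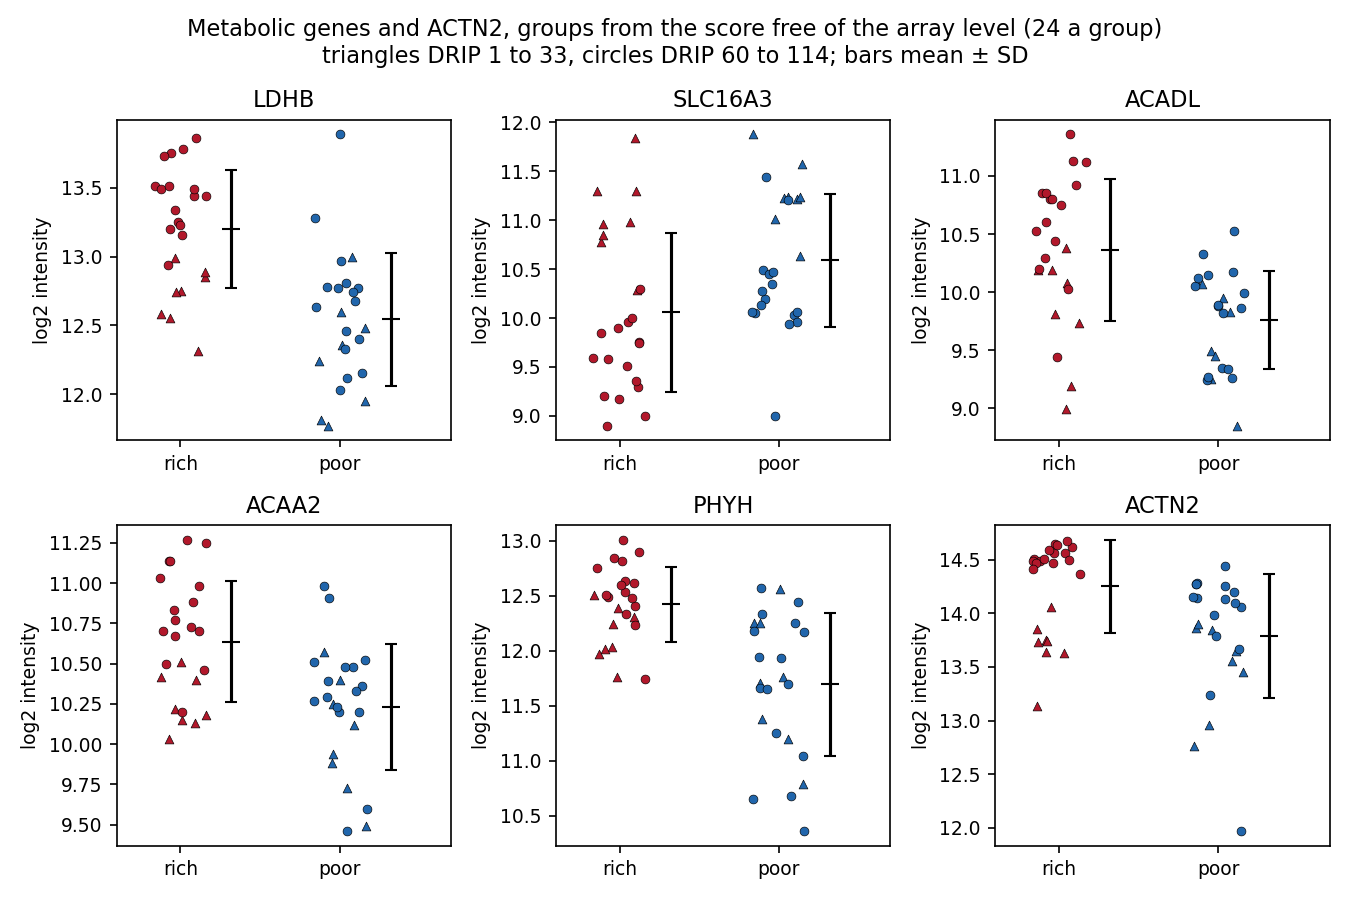
Log2 intensity (y axis) of LDHB, SLC16A3, ACADL, ACAA2, PHYH and ACTN2, 1 point per animal, for the groups from the score free of the array level, slow fibre rich on the left, with the mean and SD of 24 animals as bars. The slow fibre rich animals are higher in 5 genes, by 0.40 to 0.73, and lower in SLC16A3 (-0.53), with overlapping ranges in all 6 panels.

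The gene lists were read beside the median difference of 0.01 over the 4892 genes with 1 symbol, of which 9 were called and 2575 had a positive difference. In the second grouping these genes had a median of 0.00, with 23 called higher, 3 called lower and 2392 positive. Of 8 slow sarcomere genes tested 4 were called and 7 had a positive difference, with a median of 0.35. Of 33 genes of complex I none was called in the first grouping, 27 had a positive difference and the median was 0.13, with 0.11 in the second grouping. The 28 genes of complexes II to V had a median of 0.06 in the first and 0.13 in the second grouping, and the 16 genes of the citric acid cycle 0.08 and 0.09. The 22 genes of fatty acid uptake and oxidation had a median of 0.09 in the first and 0.20 in the second grouping, where 20 of 22 were positive and 2 were called. For the 20 genes of glycolysis and glycogen the sign of the median depended on the grouping, at 0.14 in the first, where 16 were positive, and -0.03 in the second, where 16 were negative, none called in either. Among the 19 regulators of fibre type measured none was called, and the median was 0.00 in the first and 0.02 in the second grouping. MEF2A (-0.32), TFAM (-0.33) and TEAD4 (0.35) were the widest, with limma adjusted p of 0.300 to 0.342. The median was -0.01 for 25 genes of the mitochondrial ribosome, 0.05 for 17 Z-disc and stress genes (2 called, HSPB6 and FHL1), 0.06 for 6 genes of oxygen supply and 0.00 for 29 proteasome genes. It was 0.17 for 9 genes of the lactate and malate shuttle, 0.14 for 5 genes of high-energy phosphate and 0.11 for 9 immediate early and heat shock genes, none called.

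**Figure D5:**
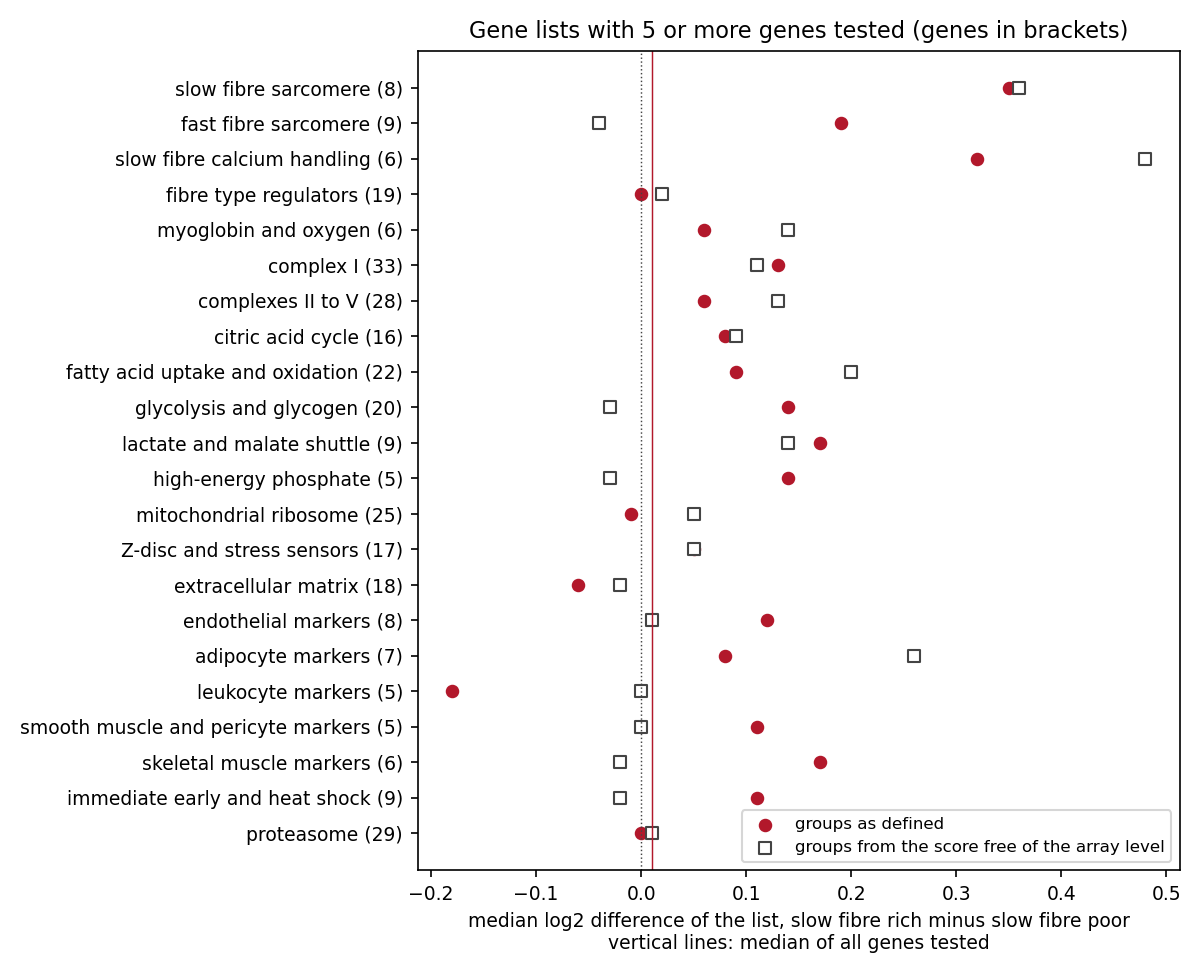
Median log2 difference, slow fibre rich minus slow fibre poor (x axis), of each gene list with 5 or more genes tested, for the groups as defined (filled red circles) and the groups from the score free of the array level (open squares), with the median of all genes as vertical lines. The slow sarcomere and slow calcium handling lists lie farthest to the right in both. The fast sarcomere, glycolysis, high-energy phosphate and skeletal muscle lists lie on opposite sides of 0 in the 2 groupings. So do the immediate early and heat shock list (0.11 and -0.02) and the mitochondrial ribosome list (-0.01 and 0.05). Lists with a median of 0.00 in either grouping are left out of this count.

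Markers of muscle and of other cells gave no call. The skeletal muscle markers CKM, MYLPF, TTN, NEB, DES and TNNT3 were bright in every animal, with a mean log2 level of 15.22 to 15.88 in the slow fibre rich and 14.90 to 15.67 in the slow fibre poor animals. All 6 had a positive difference in the first grouping, each at an unadjusted p under 0.05, with a median of 0.17, and the median was -0.02 in the second. The 7 adipocyte markers, FABP4 and ADIPOQ among them, had a mean log2 level per animal with a median of 10.24 and a highest value of 12.64 in the slow fibre rich, against 9.85 and 12.36 in the slow fibre poor animals, wide and overlapping ranges, with a median difference of 0.08 in the first and 0.26 in the second grouping. The 8 endothelial markers lay between 8.85 and 9.71 in the rich and 8.43 and 9.69 in the poor animals (median difference 0.12). The 5 leukocyte markers lay between 7.45 and 9.06 in the rich and 7.19 and 9.73 in the poor animals (median difference -0.18), and the 18 genes of the extracellular matrix had a median difference of -0.06. The 5 smooth muscle and pericyte markers had a median difference of 0.11, and the 2 satellite cell, 2 nerve, 2 erythroid and 2 further muscle markers measured lay at -0.13, -0.28, -0.29 and 0.15. Of 8 sex-linked transcripts listed, 1 has an annotated probe set and 0 were tested. The part of these cells in the called genes was not tested.

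Whether the effect of the group differed between the blocks of label numbers was tested across all probe sets. The interaction of group and block passed for 0 of 11996 probe sets in limma, with 249 (2.08%) at an unadjusted p under 0.05. Taken alone, the 16 against 16 animals with high numbers gave 7 higher probe sets (0.0584%) and 0 lower, and all 7 were among the 15 calls. These animals also entered the fit that chose the 15, so the overlap is no independent support. The 8 against 8 animals with low numbers gave 0 in limma, with 236 (1.97%) at an unadjusted p under 0.05. TNNC1 differed by 0.50 in the low and 0.55 in the high numbers, MYL3 by 0.51 and 0.76, and ATP2A2 by 0.38 and 0.51. PDLIM1 differed by 0.32 in the low and 0.61 in the high numbers, with DRIP 26 in the low block.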

How the data were processed

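RNA of 74 muscles was measured on 1 array each. The deposited values, as intensities on a linear scale for 24123 probe sets, came from arrays that the authors scanned and analysed with GCOS 1.1.1 (global scaling to 500), MAS5 and PLIER. Which algorithm made the deposited intensities is not stated, and the arrays are not at that target. Here every array was brought to the same trimmed mean of 500 (2% left out at each end), floored at 1 and taken to log2. Controls were left out, and the brighter 11999 of the remaining 23999 probe sets were kept, and the 3 of the score genes entered no test. Among those kept, the platform annotation has a single symbol for 6381, more than 1 for 135 and no symbol for 5483, and 6 were named from the study's tables. A gene was read by its brightest probe set.

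The groups were compared with limma 3.58.1 (lmFit, eBayes with trend, two-sided) in R 4.3.3, and technical measures by 100000 permutations within blocks. The limma fit was tested on simulated data, where it found 9 of 100 planted log2 differences of 0.25 and 71 of 100 of 0.5, with 0 false calls. A missing call at a difference near or below 0.25 therefore does not show that a gene did not differ. Whether recovery and false calls are the same where many probe sets move together and many animals are full siblings was not tested. Named were all genes of the slow and fast fibre lists, up to 4 called genes of each other list and the 15 called genes of largest difference in each direction with the same sign in both blocks. Genes called only with the second grouping were named after their values had been seen. The score, the groups and the gene lists were chosen with earlier results of these data known. The number of arrays limits the precision. Alternatives varied the scaling, filter, score, covariates and animals, and those that leave out DRIP 23, DRIP 26 or DRIP 114, use the score free of the level or take the 100 brightest probe sets as a covariate were chosen after seeing the data. No genome build is named, so no positions are given.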

Additional observations from a re-analysis of the deposited data

Results flagged for a closer look

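In the low block each group has 8 animals, few enough to test for single animals far from the rest by Dixon's gap, over 29 genes and both groups. Of 58 such groups of values 20 had an extreme animal, where about 5% are flagged by chance, and genes of one muscle are not independent. DRIP 23, slow fibre rich and with the dimmest array, gave 12 of them. It was the highest for MYL2 (16.13), SMPX (15.23), MYH2 (16.33), MYL1 (16.27), MYLPF (16.41), TNNT3 (16.49), TNNC2 (16.14), TPM1 (16.37), ATP2A1 (15.69), FHL1 (15.89) and PRDX2 (14.08), and the lowest for PLN (9.00). DRIP 26, slow fibre poor, gave 7. It was the lowest for MYH2 (13.30, next 15.68), TPM1 (15.04), MYOZ1 (14.36), MYOM2 (13.44), SLN (14.42) and ATP2A1 (13.53), and the highest for PDLIM1 (12.30). DRIP 11, slow fibre poor, was the lowest for SMPX (13.05). Without DRIP 23 and DRIP 26 there were 17 higher and 0 lower probe sets, and 14 of the 15 calls passed.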

How the results depend on the processing

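None of the 15 called probe sets turned its sign in any alternative. The number that passed again ran from 0 within the low block alone to 15 with the score as a continuous term, with the score without TNNI1 and with z scores within each block. These alternatives re-use the animals that chose the 15, so neither result is independent support. With z scores within each block, 23 of 24 rich and 24 of 24 poor animals were the same. The count of higher probe sets (15) was 6 in the values as deposited, 8 with quantile normalization, 9 with the array level as a covariate, 7 within the high block, 0 within the low block, 43 with the score without TNNT1, 582 without TNNI1, 44 with the score free of the array level and 90 with that score and without DRIP 23, DRIP 26 and DRIP 114. With the score as a continuous term over all 74 animals it was 536. The count of lower probe sets (0) was 1996 as deposited, where the median of all probe sets shifts by -0.23, and 403 with the continuous score, 691 without TNNI1, 1 without TNNT1, and 9 and 42 with the score free of the level with all animals and without those 3. Of the 9 called genes, MYL2, MYBPC1, ATP2A2, FHL1 and PRDX2 missed the threshold with quantile normalization, and these 5 and PDLIM1 missed it in the values as deposited. The count of lower calls thus depends on the scaling and on the score. The cause was not tested. The interaction with block gave 1 probe set with the score without MYH7.

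The level difference between the groups was -0.15 without MYH7 in the score (permutation adjusted p = 0.061) and -0.25 within the low block (0.228). It reversed to 0.09 where the level was removed from the score. The removal makes the difference small by construction but does not set its sign. The 100 brightest probe sets differed by 0.10 (permutation adjusted p = 0.0518), 0.20 (0.228) and 0.00 (0.941) under these 3 settings. The GAPDH ratio reversed to 0.05 with the score free of the level (permutation adjusted p = 0.0472). Of the 29 named genes, 14 changed sign as deposited, 13 with the score free of the level, 8 with the level as a covariate and 5 with quantile normalization, all genes that passed in neither fit. ATP2A1, which had not passed (0.17), turned sign and passed once, at -0.29 with the score free of the level and without DRIP 23, DRIP 26 and DRIP 114 (limma adjusted p = 0.0412). The label numbers name single animals, 1 array each. No paired analysis was possible because no number is shared between animals. In the first grouping, no count of calls per list moved by more than 1.5 times when every kept probe set of a gene was counted.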
